A study of Drosophila melanogaster with 6 samples.

Results

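The genes described here encode enzymes of the tricarboxylic acid (TCA) cycle in the mitochondrial matrix and the subunits of succinate dehydrogenase (SDH). They were chosen by symbol from the deposited table, in cycle order, as kdn, mAcon1, Idh3a, Idh3b, SdhA, SdhB, SdhC, SdhD and Mdh2. Each of the 9 symbols was found, among 17807 genes in the table, and each of the 9 genes passed the filter on low values.

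The TCA cycle oxidises the acetyl group that pyruvate, fatty acids and some amino acids supply, and passes the electrons to the respiratory chain as reduced nicotinamide and flavin carriers. SDH belongs to both systems. It oxidises succinate to fumarate in the cycle, and as complex II of the inner mitochondrial membrane it hands those electrons to ubiquinone. Muscle holds many mitochondria and draws much of the ATP for contraction from this route.

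The libraries came from muscle-enriched lysates of Drosophila melanogaster larvae late in the third instar, each a pool of 7 to 10 animals grown for about 90 h. All animals carried UAS-dcr2, which strengthens RNA interference, and the Dmef2-Gal4 driver, which is active in muscle. In the control genotype the driver expressed UAS-mCherryRNAi, a hairpin against a fluorescent protein that flies lack. In the other it expressed UAS-tmodRNAi, against tropomodulin, which caps actin filaments at their pointed ends in the sarcomere. Each genotype had 3 libraries, labelled as biological replicates. The labels name the tissue as adult in one field and the animals as larvae in another. In these libraries fln, known from adult flight muscle, was listed at 0 in all 6, whereas the sarcomere genes Mhc and Act57B were among the most abundant of the 20 muscle markers.

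The libraries held between 83824273 and 110151028 reads, so the 9 genes were well covered, with at least 3087 normalized counts and 3560 reads in each library. A normalized count is a gene's read count divided by 1 factor per library. tmod itself had 70528 to 92366 normalized counts in the controls and 12980 to 13993 in the knockdown libraries, a log2 fold change of -2.54 (SE 0.12, adjusted p = 0.0045, limma). Control replicate 1 stood apart from the other controls. Across 10969 genes its log2 values correlated at 0.956 and 0.969 with control replicates 2 and 3, and at 0.961 to 0.9749 with the knockdown libraries. The muscle markers took 8.50% of all normalized counts in control replicate 1, 3.40% and 4.14% in control replicates 2 and 3, and 13.0% to 14.5% in the knockdown libraries. The tests of the 9 genes are therefore also given without control replicate 1, and ratios and sums by library.

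The comparison of tmodRNAi with mCherryRNAi addresses what muscle-enriched lysates hold when tropomodulin is depleted in muscle. The lysates also held other cell types, whose marker sums are given below. The 9 genes had higher mean values in tmodRNAi, by 1.46 to 2.19 times in the ratio of group means, with SdhB at the low end and kdn at the high end. None of the 9 passed the threshold of an adjusted p-value under 0.05 in limma (adjusted p = 0.051 to 0.097), where 23.8% of the 10969 tested genes passed, 10.9% as higher in tmodRNAi. At an unadjusted p-value under 0.05 the count was 9 of 9, against 44.7% of all tested genes and 21.7% in the same direction, and edgeR also called 0 of 9 (background 22% in all, 9.13% higher) while DESeq2 called 6 of 9 (background 39.8% in all, 18.8% higher and 21% lower). The median log2 fold change of the 9 genes was 1.07, against 0.02 over all tested genes, of which 51.5% lay above 0. For 8 of the 9 genes every knockdown library exceeded every control, which held for 25% of all tested genes; 51.4% separated in either direction.

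**Figure D1:**
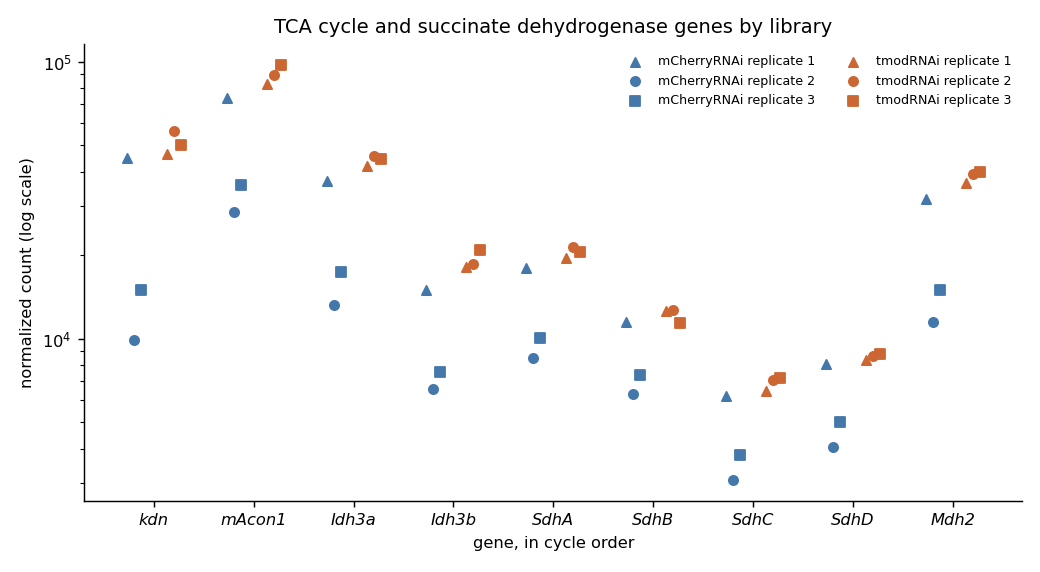
Normalized counts (log scale) of the 9 genes in each of the 6 libraries, control libraries in blue and knockdown libraries in orange, with a symbol for each replicate number. Control replicate 1 (blue triangles) sits just under the knockdown libraries for 8 genes and among them for SdhB, while control replicates 2 and 3 lie lower for every gene.

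The plot of counts by library shows the same arrangement for each gene: the 3 knockdown libraries lie close together, control replicate 1 lies beside them, and control replicates 2 and 3 lie lower. Among the controls the SD of log2 values was 0.45 to 1.13 over the 9 genes, with a median of 0.63, where the median tested gene had 0.22. Among the knockdown libraries it was 0.04 to 0.14, with a median of 0.08, where the median tested gene had 0.13. In bulk tissue such as this, fewer cells of a type and less RNA per cell cannot be told apart.

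The cycle begins with kdn (FBgn0261955), the citrate synthase that joins acetyl-CoA to oxaloacetate. It lies on the plus strand of chromosome X, from 6350629 to 6361323 in BDGP6.54, an annotation that also gives the positions below. Control replicates 1 to 3 had 44899, 9900.0 and 14934 normalized counts of kdn, and knockdown replicates 1 to 3 had 46329, 56303 and 49921. It showed the widest spread of the 9 genes among the controls, and control replicate 1 fell short of the lowest knockdown library by a small margin. The means were 23244 ± 18922 and 50851 ± 5052 (SD, n = 3 each). On the log2 scale the difference was 1.43 (SE 0.54, 95% interval 0.12 to 2.74, adjusted p = 0.093, limma), the largest of the 9 in size and the least precise.

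mAcon1 (FBgn0010100; chromosome 2L, plus strand, from 21168570 to 21173185) encodes mitochondrial aconitase, the iron-sulphur enzyme that turns citrate into isocitrate. It was the most abundant of the 9 genes, with 73767, 28706 and 35852 normalized counts across the controls and 82628, 89174 and 97340.0 under knockdown. The groups did not overlap, and control replicate 1 was nearer to the knockdown libraries than to the other controls. This came to 1.08 on the log2 scale (SE 0.35, 95% interval 0.23 to 1.93, adjusted p = 0.067, limma).

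Idh3a and Idh3b encode the catalytic alpha subunit and the beta subunit of the NAD-dependent isocitrate dehydrogenase, a regulated step of the cycle. Idh3a (FBgn0027291; chromosome X, minus strand, from 19518428 to 19521810) had 37168, 13246 and 17333 normalized counts across the controls and 41888, 45566 and 44462 under knockdown. Idh3b (FBgn0038922; chromosome 3R, minus strand, from 22016391 to 22019382) had 14964, 6589.5 and 7595 across the controls and 18074, 18556 and 20850.0 under knockdown. Neither gene's groups overlapped, and in both the lowest value was that of control replicate 2. Their log2 fold changes were 1.10 (SE 0.37, adjusted p = 0.072) and 1.07 (SE 0.31, adjusted p = 0.051, limma). Idh3b came nearest to the threshold of the 9 genes and passed it with a filter at a mean of 50 normalized counts (adjusted p = 0.049), with quantile normalization (0.047) and in DESeq2 (0.013).

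Mdh2 (FBgn0262559; chromosome 3R, plus strand, from 18226396 to 18228718) encodes the mitochondrial malate dehydrogenase, which restores oxaloacetate at the end of the cycle. It had 32009.7, 11499 and 15009 normalized counts across the controls and 36337, 39130.1 and 39974 under knockdown. As for the other matrix enzymes, control replicates 2 and 3 were well below the remaining 4 libraries. The difference in log2 means was 1.12 (SE 0.37, 95% interval 0.22 to 2.02, adjusted p = 0.069, limma).

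For the SDH subunits too, control replicates 2 and 3 lay below the other 4 libraries, with smaller differences. SdhA (FBgn0261439; chromosome 2R, minus strand, from 19391863 to 19395971), the flavoprotein that holds the succinate site, had 18023, 8505 and 10016 normalized counts across the controls and 19482, 21434 and 20472 under knockdown. SdhB (FBgn0014028; chromosome 2R, plus strand, from 6807626 to 6809172), the iron-sulphur subunit that relays the electrons, had 11467, 6323 and 7394 across the controls and 12611, 12705 and 11406 under knockdown. SdhB was the only one of the 9 genes whose groups overlapped, since control replicate 1 exceeded knockdown replicate 3. The log2 fold changes were 0.83 for SdhA (SE 0.28, adjusted p = 0.072) and 0.59 for SdhB (SE 0.22, adjusted p = 0.092, limma).

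SdhC and SdhD encode the membrane anchors at which ubiquinone is reduced. SdhC (FBgn0037873; chromosome 3R, minus strand, from 11208887 to 11209849) had 6198, 3087 and 3806 normalized counts across the controls and 6493, 7096 and 7186 under knockdown. SdhD (FBgn0039112; chromosome 3R, minus strand, from 23759483 to 23760600) had 8115, 4072 and 5010.4 across the controls and 8356, 8617 and 8773 under knockdown. The knockdown values of SdhD were the tightest of the 9 genes, at 8582 ± 211 (SD, n = 3), and control replicate 1 lay just below them. The log2 fold changes were 0.73 (SE 0.25, adjusted p = 0.077) for SdhC and 0.64 (SE 0.25, adjusted p = 0.097, limma) for SdhD. By an exact permutation test, two-sided, p was 0.2 for SdhB and 0.1 for each of the other 8 genes, the latter being the smallest value that 3 libraries against 3 allow. Exons of mAcon1, SdhA, SdhB and SdhD overlap exons of genes on the opposite strand, by 12, 38, 129 and 124 bases with any single gene, and the strand setting of the counting is not given in the sources used here.

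**Figure D2:**
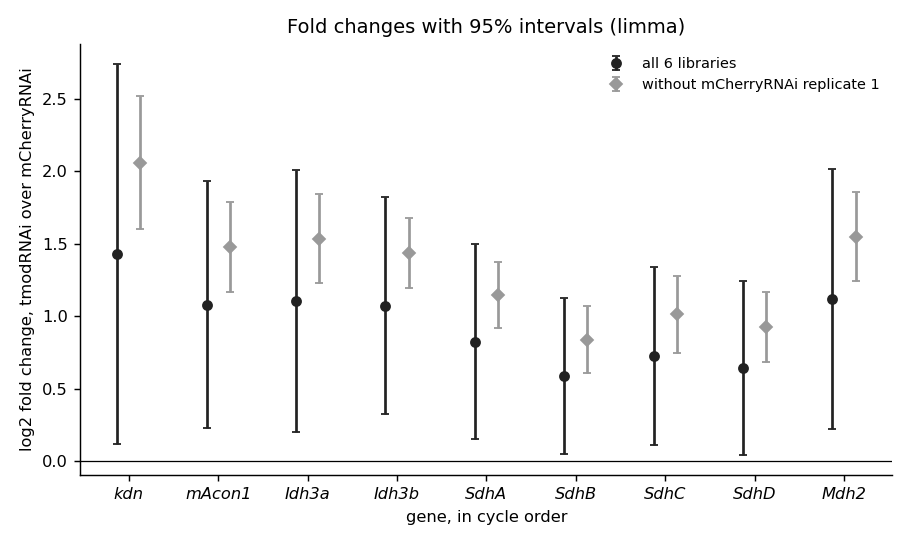
Log2 fold change of tmodRNAi over mCherryRNAi for the 9 genes with 95% intervals from limma, with all 6 libraries (black circles) and without control replicate 1 (grey diamonds). Without that library the estimates are larger, from 0.84 for SdhB to 2.06 for kdn, and the intervals are narrower.

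Leaving out any other single library gave 0 of 9, with 0 to 59 of all 10969 tested genes passing. Leaving out control replicate 1 changed the call for each of the 9 genes. It was the highest control for each of them, so its removal had to enlarge every difference. All 9 then passed the threshold in limma (adjusted p = 0.00028 to 0.0011), but so did 47.4% of all tested genes, 22.5% as higher and 25% as lower. The log2 fold changes became 2.06 for kdn, 1.48 for mAcon1, 1.54 for Idh3a, 1.43 for Idh3b and 1.55 for Mdh2, and 1.15, 0.84, 1.01 and 0.93 for SdhA, SdhB, SdhC and SdhD. Set against control replicate 1 alone, the knockdown mean was 1.06 times as high for SdhD, 1.07 times for SdhB, 1.13 times for kdn and 1.28 times for Idh3b, the largest ratio of the 9. Control replicate 1 was itself 1.67 (SdhB) to 3.62 (kdn) times the mean of control replicates 2 and 3. These comparisons with a single library have no replicate check.

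The levels of the transcripts were compared per length, as normalized counts per 1000 bases of annotated exon. On this scale mAcon1 and Mdh2 were highest in the knockdown libraries, at 28912 ± 2375 and 28824 ± 1426 (SD, n = 3 each), and did not differ beyond their spread. Idh3a followed at 20899 ± 897 and kdn at 17931 ± 1781, each below its upper neighbour without overlap. SdhB at 10042 ± 594, SdhD at 9600 ± 236 and Idh3b at 9306 ± 720 overlapped from neighbour to neighbour, as did SdhC at 7643 ± 416 and SdhA at 7441 ± 355. Among the controls the ranges of every pair of neighbours overlapped, since the libraries differed widely. Within each control library, however, the order held in 3 of 3 for 5 of the 8 pairs, namely Mdh2 above Idh3a, Idh3a above kdn, SdhB above SdhD, SdhD above Idh3b and SdhC above SdhA.

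The 4 SDH subunits, which are present in equal numbers in the assembled complex, had similar transcript levels per length. The highest subunit exceeded the lowest by 1.44, 1.68 and 1.67 times in control replicates 1 to 3 and by 1.46, 1.34 and 1.32 times in knockdown replicates 1 to 3. SdhA was the lowest in all 6 libraries, and SdhB was the highest in all but knockdown replicate 3, where SdhD was. The per-length ratio of SdhC to SdhD lay between 0.748 and 0.754 in the controls and between 0.767 and 0.813 in the knockdown libraries. For the isocitrate dehydrogenase subunits the per-length ratio of Idh3a to Idh3b was 1.97 to 2.43 in the controls and 2.09 to 2.40 in the knockdown libraries, so these ranges overlapped.

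The matrix enzymes and the SDH subunits did not keep a fixed ratio across libraries. The summed normalized counts of kdn, mAcon1, Idh3a, Idh3b and Mdh2 were 4.63, 3.18 and 3.46 times the SDH sum in control replicates 1 to 3, and 4.80, 4.99 and 5.28 times that sum in the knockdown libraries. The count of kdn relative to SdhB spanned the most, with 3.92, 1.57 and 2.02 in the controls and 3.67, 4.43 and 4.38 in the knockdown libraries. Control replicate 1 thus resembled the knockdown libraries in the balance of the genes as well as in their sum. No test was made of these ratios.

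**Figure D3:**
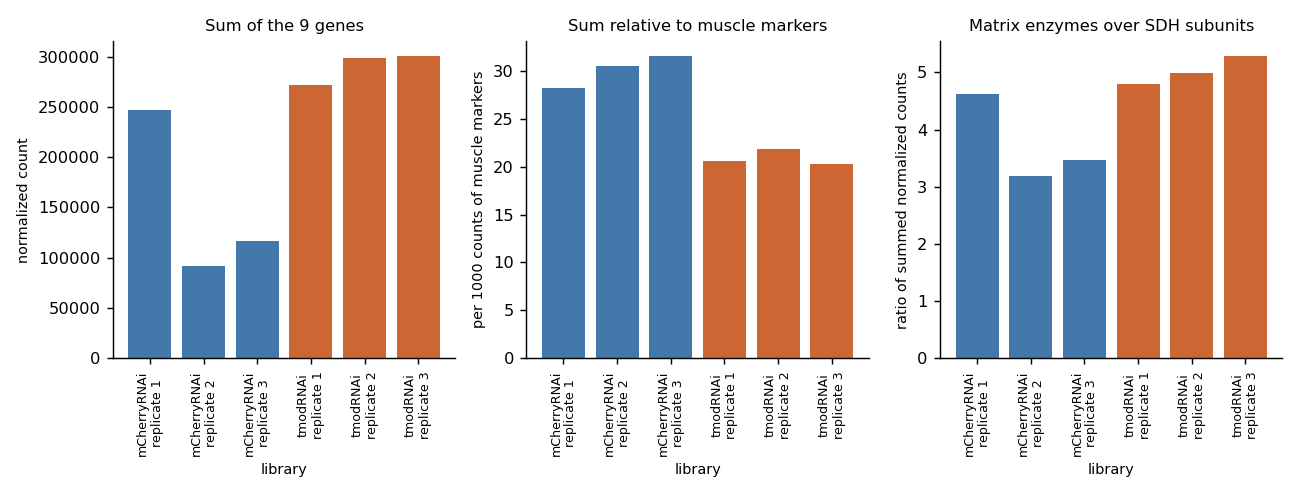
Summed normalized counts of the 9 genes (left), the same sum per 1000 normalized counts of the 20 muscle markers (middle), and the ratio of the 5 matrix enzymes to the 4 SDH subunits (right), 1 bar per library, controls in blue and knockdown in orange. The sum relative to muscle markers is 28.2 to 31.5 in the controls and 20.3 to 21.9 in the knockdown libraries.

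The summed markers of muscle, fat body and hemocytes were higher in every knockdown library than in every control. Those of epidermis, neurons, salivary gland and midgut overlapped between the groups. The 9 genes summed to 246611, 91927 and 116949 normalized counts in the controls and to 272197, 298581 and 300384 in the knockdown libraries. The muscle markers summed to 8734850, 3015228 and 3709528 in the controls and to between 13230217 and 14807087 in the knockdown libraries. Of 19 tested markers, 18 were higher in the mean (51.5% of all tested genes) and 10 were called higher in limma (background 10.9%). In edgeR 2 were called (background 22%), and in DESeq2 19 (background 39.8%). Per 1000 normalized counts of muscle markers, the sum of the 9 genes was therefore lower in tmodRNAi, at 20.3 to 21.9 against 28.2 to 31.5. Relative to Zasp52 alone, the sum was 1.72 to 1.92 in the controls and 1.93 to 2.06 in the knockdown libraries. This ratio was thus higher in tmodRNAi, the other direction from the ratio to the summed markers. Zasp52, a Z-disc gene, was chosen after its values were seen, as the gene most correlated with the mean profile of the 9. A gene picked for its likeness to the 9 gives no independent check of the direction, and the difference between the 2 ratios was not tested. Control replicate 1 was the lowest control by the first measure.

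Markers of fat body, the larval storage tissue, were detected too. For the counts that follow, 10.9% of all tested genes were called higher in limma, 12.9% were called lower, and 51.5% lay above 0. In edgeR 22% were called and in DESeq2 39.8%, and 44.7% had an unadjusted p-value under 0.05 in limma. The 8 markers summed to 167912 to 269105 normalized counts in the controls and 306325 to 983934 in the knockdown libraries, with 7 of 8 higher in the mean and 3 called higher. Hemocyte markers summed to 202168 to 250837 and 269029 to 339508, with 2 of 10 called higher and 4 called lower. Epidermal markers overlapped between groups, at 5503288 to 14515727 and 10293742 to 12449271, with 0 of 9 called (limma; 2 at an unadjusted p-value under 0.05, 0 in edgeR, 1 in DESeq2). The sums for 8 neuronal markers were 3977 to 5535 and 5460 to 10705, with 1 called higher, while those of salivary gland and midgut reached at most 3544 and 1014 in a library, with 0 called in limma, edgeR or DESeq2 (1 and 0 at an unadjusted p-value under 0.05). The part of these cell types in the values of the 9 genes was not tested.

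The rest of the pathway was read from a list of 29 genes for the other cycle enzymes, the entry of pyruvate and the exits and refills of the cycle. Of the 28 tested, 2 were called higher and 1 lower (limma, background 10.9% higher and 12.9% lower), and their median log2 fold change was 0.50. Pepck1 was listed at 0 in every library, and its exons lie within those of an overlapping gene. The called genes were PCB, Men and CG8199. Without control replicate 1 the counts were 19 higher and 2 lower (limma, background 22.5% higher and 25% lower).

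PCB, the pyruvate carboxylase that refills the cycle with oxaloacetate, was the only one of the 28 called lower in limma with all 6 libraries. It had 72199, 131539 and 143126 normalized counts across the controls and 44073, 37258 and 28702 under knockdown. Control replicate 1 was again the control nearest to the knockdown group, but remained above all 3 of its libraries. PCB was lower by a log2 fold change of -1.62 (SE 0.30, adjusted p = 0.031, limma), and it passed in edgeR (0.032) and DESeq2 (5.1e-06) as well. Its exons overlap an antisense RNA, and it no longer passed when any library but control replicate 1 was left out (adjusted p = 0.067 to 0.12, limma). In those fits 0 to 59 of all 10969 tested genes passed.

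Men, a malic enzyme that turns malate into pyruvate, rose from 16222 ± 5323 to 28794 ± 2559 normalized counts (SD, n = 3 each; log2 fold change 0.87, SE 0.23, adjusted p = 0.043, limma). In edgeR (0.055) and in limma without the trend (0.064) it missed the threshold. CG8199, named BckdhA in BDGP6.54 for a branched-chain keto acid dehydrogenase subunit, rose from 1181 ± 322 to 2373 ± 311 (log2 fold change 1.03, SE 0.21, adjusted p = 0.031, limma). It is a gene of branched-chain amino acid breakdown rather than a cycle enzyme, and it missed the threshold in limma without the trend (0.051). Neither gene passed when any library but control replicate 1 was left out, fits in which 0 to 59 of all 10969 tested genes passed.

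**Figure D4:**
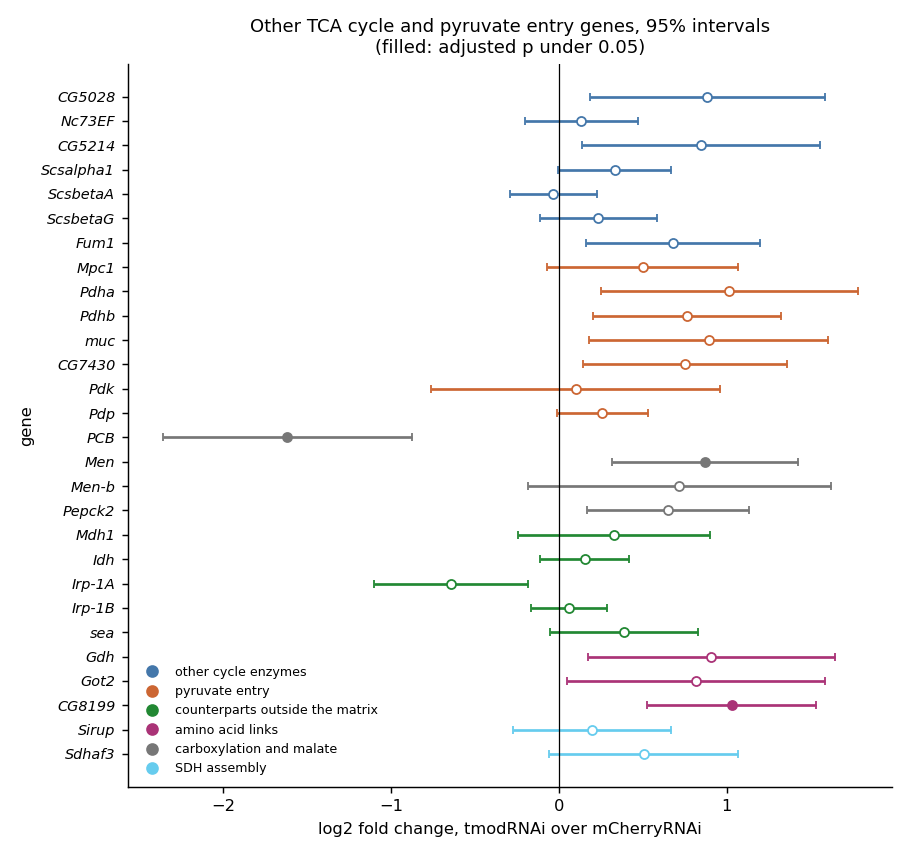
Log2 fold change of tmodRNAi over mCherryRNAi with 95% intervals (limma, 6 libraries) for the 28 tested genes of the wider pathway list, coloured by role, with filled symbols for an adjusted p-value under 0.05. PCB lies at -1.62, Men and CG8199 at 0.87 and 1.03, and ScsbetaA, Nc73EF and Irp-1B near 0.

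Within the cycle the remaining enzymes did not form a single group. None of the 7 passed in limma or edgeR (3 at an unadjusted p-value under 0.05, 3 in DESeq2), and their log2 fold changes ran from -0.03 to 0.88. The shares of all tested genes were 23.8% in limma, 22% in edgeR, 44.7% at an unadjusted p-value under 0.05 and 39.8% in DESeq2. Nc73EF, named Ogdh in BDGP6.54 for the first subunit of the oxoglutarate dehydrogenase complex, had 54744 ± 8358 normalized counts across the controls and 59677 ± 3079 under knockdown (log2 fold change 0.13, SE 0.14, adjusted p = 0.48, limma). ScsbetaA, a beta subunit of succinyl-CoA synthetase, had 38010.2 ± 2054 and 37236 ± 3719 (log2 fold change -0.03, SE 0.11, adjusted p = 0.83, limma). For both genes the groups overlapped, and neither passed in limma without control replicate 1 (adjusted p = 0.093 and 0.66). In that fit 4 of these 7 enzymes passed as higher, as did all 9 cycle genes described above and 22.5% of all tested genes. CG5028, named Idh3g in BDGP6.54 and singled out after its values were seen as the gamma subunit beside Idh3a and Idh3b, had a log2 fold change of 0.88 (SE 0.29, adjusted p = 0.067, limma).

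Pyruvate entry comprises the mitochondrial pyruvate carrier, the pyruvate dehydrogenase subunits and their regulating kinase and phosphatase. None of its 7 genes passed in limma or edgeR (4 at an unadjusted p-value under 0.05, 4 in DESeq2), with log2 fold changes from 0.10 to 1.01. Without control replicate 1, 6 passed as higher in limma, where 22.5% of all tested genes did. With all 6 libraries the shares of all tested genes were 23.8% in limma, 22% in edgeR, 44.7% at an unadjusted p-value under 0.05 and 39.8% in DESeq2. CG7430, listed as E3 among its RefSeq synonyms, had 13833 ± 5113 and 22343 ± 1501 normalized counts in control and knockdown (a log2 fold change 0.75, SE 0.25, adjusted p = 0.071, limma). The enzymes that link the cycle to amino acids had similar sizes of difference, with Gdh (glutamate dehydrogenase) at 0.91 (SE 0.30, adjusted p = 0.071) and Got2 (mitochondrial aspartate aminotransferase) at 0.82 (SE 0.31, adjusted p = 0.098, limma).

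The list held 5 genes whose products work wholly or partly outside the matrix. Their log2 fold changes ran from -0.64 to 0.39, with 0 passing in limma (1 at an unadjusted p-value under 0.05, 1 each in edgeR and DESeq2). That gene was the same in each case and was lower in tmodRNAi. Of all tested genes, 23.8% passed in limma, 44.7% had an unadjusted p-value under 0.05, and 22% and 39.8% were called in edgeR and DESeq2. The gene at 0.39 shares 1660 of its 1949 exon bases with a gene on the same strand. Mdh1, the cytosolic malate dehydrogenase, had 36655 ± 11895 and 44531 ± 3036 normalized counts in control and knockdown (a log2 fold change 0.33, SE 0.23, adjusted p = 0.31, limma), against 1.12 for its mitochondrial counterpart Mdh2. Idh, the NADP-dependent isocitrate dehydrogenase, had a log2 fold change of 0.15 (SE 0.11, adjusted p = 0.32, limma), against 1.10 and 1.07 for Idh3a and Idh3b. Men-b, the other malic enzyme gene of the list, was grouped with Men and is not one of these 5 genes. It had a log2 fold change of 0.72 (SE 0.37, adjusted p = 0.18, limma), and its groups overlapped. The differences between Mdh1 and Mdh2, between Idh and the Idh3 genes, and between Men and Men-b were not tested. Neither of the 2 listed SDH assembly factor genes passed in limma, edgeR or DESeq2 (0 at an unadjusted p-value under 0.05), with log2 fold changes of 0.20 and 0.50 and overlapping groups.

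Neighbouring systems of energy metabolism were set beside the 9 genes. Of 34 tested nuclear genes with a complex I symbol, 8 were called higher and 0 lower in limma (2 called in edgeR, 31 in DESeq2), where 10.9% of all tested genes were called higher in limma, 22% were called in edgeR and 39.8% in DESeq2, with a median log2 fold change of 0.64. For complexes III, IV and V the counts were 2 higher and 0 lower of 29 tested (0 called in edgeR, 21 in DESeq2), with a median of 0.87, and for 11 glycolytic genes they were 0 and 0 (2 at an unadjusted p-value under 0.05, 0 in edgeR and DESeq2), with a median of 0.87. Without control replicate 1 the same lists had 32, 26 and 10 genes called higher, against 22.5% of all tested genes. The 13 protein genes of the mitochondrial genome, by contrast, had a median log2 fold change of 0.10 with 0 called in limma (4 at an unadjusted p-value under 0.05, 0 in edgeR, 3 in DESeq2) and 2 called without control replicate 1, and their summed counts overlapped between groups, at 2086941 to 2674168 and 2268360.5 to 2672954. An unadjusted p-value under 0.05 in limma was found for 44.7% of all tested genes. The difference between the lists was not tested.

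The ratio to these systems differed in how it varied. The sum of the 9 genes relative to the complex I genes was 1.33, 0.825 and 0.934 in control replicates 1 to 3 and 1.32 to 1.37 in the knockdown libraries. Relative to complexes III, IV and V it was 0.369 to 0.414 in the controls and 0.393 to 0.413 in the knockdown libraries, which overlap. Relative to the glycolytic genes it was 0.106 to 0.121 and 0.123 to 0.131, without overlap.

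The 9 genes followed each other closely over the 6 libraries, with pairwise Pearson correlations of log2 values from 0.966 to 0.9995 over 36 pairs. The 5 other genes nearest to their mean profile, among the 8557 candidates whose mean normalized count reached 100, were Zasp52, CG12115, St1, COX7A and Tob, at correlations of 0.998 to 0.999. Of these, Zasp52 encodes a Z-disc protein of the sarcomere and COX7A a subunit of cytochrome c oxidase. Zasp52 had 128675, 53309 and 67371 normalized counts across the controls and 141111, 145139 and 150277 under knockdown, again with control replicate 1 beside the knockdown libraries. With 6 libraries in 2 groups and 872 of the 8557 genes above a correlation of 0.95, such likeness is common, and these values are a description.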

How the data were processed

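Per the labels' protocols, Trizol RNA went into SMARTerAmpSeq libraries read as pairs of 50 nt. The authors deposited normalized counts, a signal that is never negative, for 17807 genes in 6 libraries. Per the submitters' processing notes, DESeq2 1.30.1 and the build dm6 were used. The aligner, counting tool and strand setting are not given in the sources used here. All values (100%, within 1e-06 reads) were whole multiples of 1 step per library, so whole reads were recovered. Lengths and positions came from the Ensembl BDGP6.54 annotation, which uses dm6 coordinates. No sequence is printed.

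Genes whose mean normalized count reached 10 (10969 of them) were tested on log2(normalized count + 1) with limma 3.58.1 (trended prior) in R 4.3.3, adjusted by Benjamini-Hochberg over all tested genes with a threshold of 0.05. A fold change is the difference of group means on that scale, which understates the change of low genes. On the recovered reads, edgeR 4.0.16 called 2417 genes and DESeq2 1.42.0 called 4364. Other alternatives were pseudocounts of 0.1 and 10, no filter, a filter at a mean of 50, median centring, quantile normalization, limma without the trend, each library left out, and a replicate block. The tests were checked on simulated counts.

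The members and lists were chosen with earlier results of these data known. Named genes were the 9 members and tmod; in the wider list, those called and the 8 most abundant others; the 4 most abundant listed paralogs; and the 5 genes most correlated with the members. A gene named otherwise is said to be, except fln, Mhc, Act57B, Irp-1B, Pepck1 and Fum1, which also fall outside this rule. The genes of the mitochondrial genome were matched by symbol after the table was seen, because its symbols lack the prefix first searched. Replicates share no stated origin beyond their label, so p-values measure the spread between these libraries.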

Additional observations from a re-analysis of the deposited data

How the results depend on the processing

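The 9 genes were higher in tmodRNAi in the mean under each of the 16 alternatives. None passed under the main setting, and 0 of 9 passed with pseudocounts of 0.1 and 10, without a filter, with median centring, in limma without the trend and in edgeR, with 6 to 9 of them at an unadjusted p-value under 0.05. The count became 1 with a filter at a mean of 50, 1 with quantile normalization and 6 in DESeq2 (mAcon1, Idh3a, Idh3b, SdhA, SdhC and Mdh2). Leaving out each library in turn gave 0 to 9, with 9 only without mCherryRNAi replicate 1 and 1 or 2 at an unadjusted p-value under 0.05 without any other. Of the 29 listed genes of the wider pathway, 3 passed under the main setting, 13 in DESeq2 and 1 in trend-free limma, and leaving out each library gave 0 to 21. Over all genes, 2613 passed under the main setting (1195 higher, 1418 lower), 4364 in DESeq2 and 954 in trend-free limma, and leaving out each library gave 0 to 5203; in the fits with 0 calls, 3227 or more genes had an unadjusted p-value under 0.05. For tmod, the log2 fold change was -2.62 to -2.42 over the 6 fits that each omitted a library and passed in 3 of 6.

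Same-numbered libraries did not deviate together: their deviations from the group means correlated at -0.06, 0.02 and -0.02 for replicates 1 to 3. These correlations cannot show whether same-numbered libraries were prepared together. With the replicate block, 0 genes passed, 0 of the 9 (9 at p under 0.05 before adjustment), 0 of the wider list (13), and tmod at -2.54 did not (adjusted p = 0.096), with 3969 genes at an unadjusted p-value under 0.05. With at least 3560 reads for each of the 9 genes in each library, counting error was small beside the spread among the controls.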

Other observations

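Several cycle enzymes of Drosophila have a second gene whose expression is known mainly from testis. Of 13 such paralogs listed, 12 matched a row of their own, and 4 passed the filter at a mean of 10 normalized counts. SdhBL, a paralog of SdhB, had 94.1, 36.2 and 38.5 normalized counts in control replicates 1 to 3 and 154, 152 and 172 in the knockdown libraries. As for the 9 genes, control replicates 2 and 3 were the lowest libraries, and SdhBL rose by 1.63 on the log2 scale (SE 0.39, adjusted p = 0.038, limma; 0.051 in edgeR, 0.0034 in DESeq2). Fum2, whose exons overlap those of Fum1 by 79 bases on the same strand, had 190 to 382 normalized counts in the controls and 457 to 495 in the knockdown libraries (log2 fold change 0.77, adjusted p = 0.070, limma). Fum4 and CG32026 had log2 fold changes of -0.07 and -0.14 and overlapping groups. The other paralogs had means under 10 and were not tested. Among them mAcon2 was listed at 0 in the 3 controls and had 5.05, 32.0 and 15.4 normalized counts in knockdown replicates 1 to 3; it was named after its values were seen. For mAcon2 the highest value was that of replicate 2, and the counts are too few for a fold change.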
